A study of Mus musculus with 6 samples.

Results

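Transcripts of the potassium channel family were counted in bulk RNA libraries from cultured cardiomyocytes of newborn mice that had received 1 of 2 adenoviruses. The virus of the control group carried the Ad-cTNT vector alone (vector, 3 libraries), and the virus of the other group carried Ad-cTNT-HMGB2 (HMGB2, 3 libraries). The cTNT (cardiac troponin T) promoter drives expression in cardiomyocytes, so the other heart cells in such a culture are not expected to make the transgene, and every library received a virus. The family was taken as all gene rows with a symbol of the form Kcn, letters and an optional number and with at least 60 counts summed over the 6 libraries. The antisense transcript Kcnq1ot1 is not among them. Of 93 such symbols, among 56691 gene rows in all, 48 reached the threshold and were described here as members. All 48 passed the filter on low counts of the fit across genes. Nearest the threshold, Kcnn4 lay inside it with 67 counts and Kcng3 outside it with 59 (2, 2 and 8 counts with the vector and 21, 12 and 14 with HMGB2).

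Potassium channels let potassium leave the cell and return the membrane to its resting voltage after each action potential. Voltage-gated channels (the prefixes Kcna to Kcnd, Kcnf to Kcnh, and Kcnq) open on depolarization and repolarize the cell. Kcnf1 and Kcng2, subunits that modify other channels of this class, are counted with them. Inward rectifiers (Kcnj) hold the resting potential or open to acetylcholine or to a fall in ATP, and two-pore channels (Kcnk) carry background current. Calcium- or sodium-activated channels (Kcnn, Kcnt) link the current to ion entry, and auxiliary subunits (Kcnab, Kcne, Kcnip, Kcnmb) change the gating or transport of the pore-forming ones. By these prefixes the members were 18 voltage-gated, 10 inward rectifier, 5 two-pore, 5 calcium- or sodium-activated and 10 auxiliary genes.

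The libraries held 12498215 to 16618365 counts. Hmgb2 itself, whose viral and chromosomal transcripts are not separated in these counts, was at 46.8, 44.8 and 36.3 CPM (counts scaled to a common library size) in the vector libraries and at 175, 196 and 182 CPM in the HMGB2 libraries (4.33-fold, edgeR adjusted p = 1.89e-06). Vector replicate 1 and HMGB2 replicate 3 stood apart from the other libraries on a second principal component, which held 14.3% of the variance. Members were lower in both, with median log2 deviations of -0.143 and -0.146 from the rest of their group, where the medians over all tested genes were 0.0121 and 0.002. Markers of cell types were counted beside all 15429 genes tested, of which 14.4% rose and 10.8% fell (edgeR adjusted p under 0.05). Of 10 cardiomyocyte markers 8 rose and none fell. Their summed level was 11780 to 13594 CPM with the vector and 21790 to 24223 CPM with HMGB2, a ratio of 1.82. Of 8 fibroblast markers 2 fell, of 7 endothelial markers 2 fell and of 7 macrophage markers 3 fell, with no rise in these lists. Their summed levels were 4954 to 5028 against 4404 to 4497 CPM, 2591 to 2681 against 2254 to 2352 CPM and 91.4 to 127 against 69.8 to 80.4 CPM. Of 8 smooth muscle and pericyte markers 1 rose and 1 fell (1461 to 1502 against 1441 to 1484 CPM), of 9 neuron and Schwann cell markers 4 were tested, 1 rose and 1 fell (14.95 to 18.55 against 11.5 to 16.3 CPM), and none of 5 epicardial markers passed (139 to 146 against 143 to 149 CPM). None of these markers was at 0 in all 6 libraries. In bulk RNA, fewer cells of a type and less RNA per cell cannot be told apart, and the part of these shifts in the results below was not tested.

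With HMGB2, 16 of the 48 members rose and 3 fell, and 29 missed the threshold (an edgeR p under 0.05 after adjustment over all genes). Over all 15429 genes tested, 14.4% rose and 10.8% fell, against 33.3% and 6.25% of the members. Pore-forming genes of cardiac currents were among the rises (Kcnh2, Kcnq1, Kcna4, Kcnj3, Kcnj5, Kcnj11, Kcnj12 and Kcnk3), as were 3 auxiliary subunits and the modifier Kcng2, while Kcnd2, Kcnd3 and Kcna5, which also carry cardiac currents, did not pass. By at least 2-fold, 14 members rose, where 4.82% of all tested genes did, and none fell. With a threshold of 30 summed counts in place of 60, 17 members rose and 3 fell, and with 120 these were 15 and 3. The sum takes both groups together, so a gene can reach 60 mainly through the group where it is high. Kcnn2 (3, 8 and 15 vector counts, 78, 59 and 52 with HMGB2) and Kcnmb4 (10, 5 and 9, then 39, 30 and 25) did so. Both are among the 16 rises, and the share of members that rose carries this limit. The log2 of the fold change, HMGB2 over vector, is given below as the log2 ratio with its standard error (SE). Its median over the members was 0.13, against -0.0022 over all genes tested, and the 29 members that did not pass lay on both sides of 0. All 3 HMGB2 libraries lay above all 3 vector libraries for 20 members and below them for 6, and the groups overlapped for 22. The same held, upward and downward, for 21.6% and 18.9% of all genes tested.

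**Figure D1:**
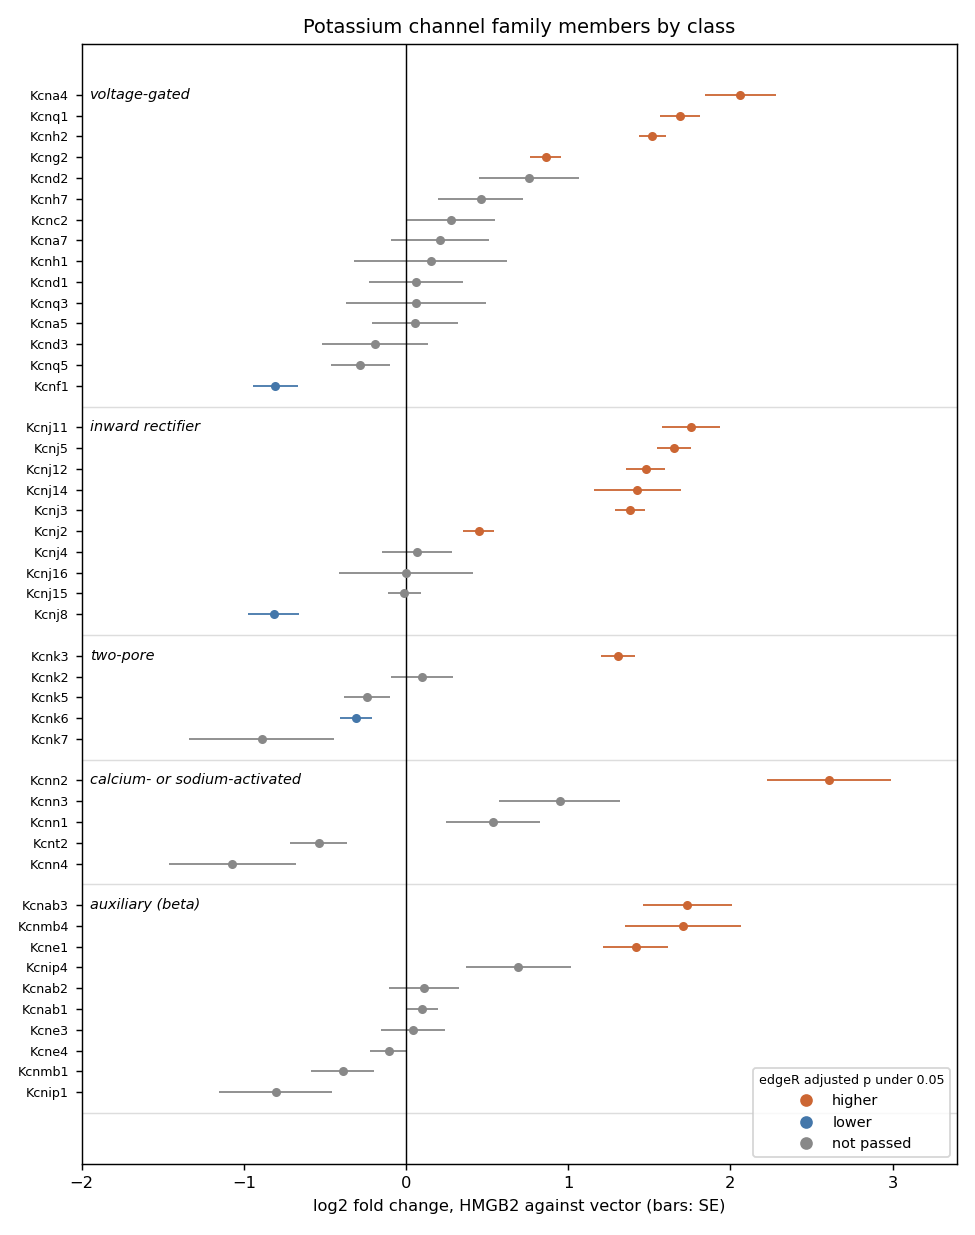
Log2 ratio (log2 fold change) of 45 of the 48 members, HMGB2 against vector, with its standard error, ordered within the 5 classes; the colour gives the call of the edgeR test. Members that rose reach from 0.45 (Kcnj2) to 2.61 (Kcnn2), and the 3 that fell are Kcnf1, Kcnj8 and Kcnk6.

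Rises and falls are given here by class, where 14.4% of all genes tested rose and 10.8% fell. Of the inward rectifiers 6 of 10 rose and 1 fell (median log2 ratio 0.91), of the voltage-gated channels 5 of 18 rose and 1 fell (0.18), of the auxiliary subunits 3 of 10 rose (0.11), of the two-pore channels 1 of 5 rose and 1 fell (-0.24), and of the calcium- or sodium-activated channels 1 of 5 rose (0.54). Differences between classes, or from all genes, were not tested, and in a class of 5 members 1 rise is already 20%. On the scale of FPKM, the deposited counts per gene length and library total, the summed level of the voltage-gated members was 21.2, 22.7 and 23.8 with the vector and 46.1, 45.4 and 42.2 with HMGB2. The inward rectifiers summed to 23.8, 24.4 and 25.4 FPKM and to 43.1, 43.8 and 41.9 FPKM. For the two-pore channels the sums were 13.03, 11.22 and 13.23 FPKM against 17.99, 16.48 and 16.35 FPKM. The auxiliary subunits had the smallest ratio of the 5 classes (1.11), from 14.5 ± 0.593 to 16.1 ± 0.155 FPKM (SD, n = 3), and the calcium- or sodium-activated channels were the lowest class in both groups, at 1.42 ± 0.208 and 1.73 ± 0.0656 FPKM. In each of the 5 classes the HMGB2 sums lay above the vector sums without overlap, but a sum can rise through 1 member. Among the voltage-gated members Kcnh2 went from 6.04 to 17.6 FPKM and the modifier Kcng2 from 7.60 to 14.0 FPKM, and 12 of the 18 did not pass. Among the two-pore channels Kcnk3 went from 3.97 to 9.98 FPKM, Kcnk2 from 1.01 to 1.09, and Kcnk5, Kcnk6 and Kcnk7 had lower means with HMGB2. Among the calcium- or sodium-activated channels Kcnn2 went from 0.0833 to 0.533 FPKM. There Kcnn1 and Kcnn3 had higher means with HMGB2, and Kcnt2 and Kcnn4 lower ones. The share of the family's summed FPKM held by voltage-gated members went from 29.9% ± 1.21 to 36.4% ± 0.632 and that of the auxiliary subunits from 19.2% ± 1.04 to 13.2% ± 0.363 (SD, n = 3). The voltage-gated sum and share rest largely on Kcnh2 and Kcng2.

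**Figure D2:**
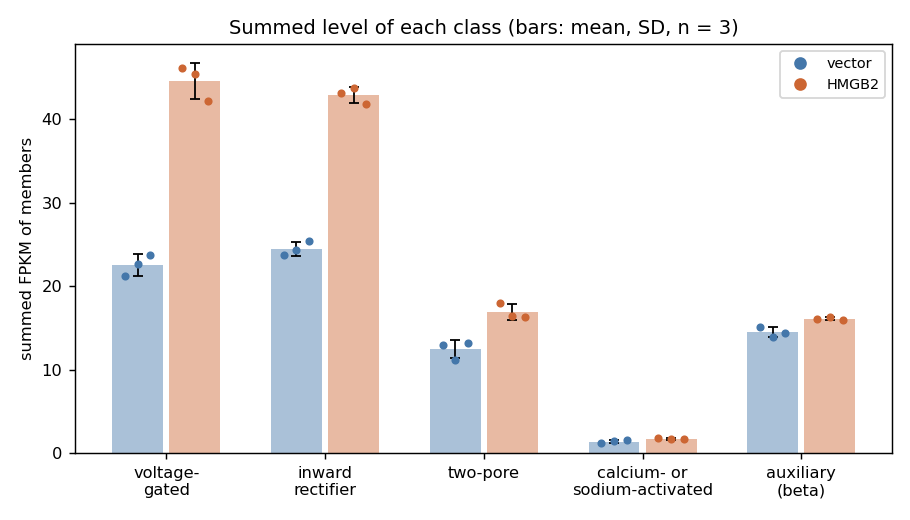
Summed FPKM of the members of each class in each library (points), with the mean (bar) and the SD of 3 libraries, for vector and HMGB2. Voltage-gated and inward rectifier members go from 22.6 and 24.5 FPKM to 44.6 and 42.9 FPKM, while the auxiliary subunits go from 14.5 to 16.1 FPKM.

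The order of the levels per gene length also differed between the groups. With the vector the highest members were Kcng2 (7.60 ± 0.13 FPKM), a modifier subunit that alters other voltage-gated channels, Kcne4 (6.53 ± 0.496 FPKM), an auxiliary subunit, and Kcnj15 (6.43 ± 0.562 FPKM), an inward rectifier (SD, n = 3). Neither Kcne4 and Kcnj15 nor Kcnh2 (6.04 ± 0.467 FPKM), next in order, stood apart from each other by more than their spread. With HMGB2 the order was led by Kcnh2 (17.6 ± 0.526 FPKM), Kcng2 (14.0 ± 1.21 FPKM), Kcnk3 (9.98 ± 0.309 FPKM) and Kcnj5 (9.40 ± 0.542 FPKM), and the last 2 did not stand apart. Kcne4 took the second place of 48 with the vector and place 9 with HMGB2, and Kcnq1 moved from place 20 to place 10. Among the lower classes, the highest were Kcnk6, Kcnk3 and Kcnk5 of the two-pore channels (4.37, 3.97 and 1.89 FPKM with the vector), Kcnt2, Kcnn1 and Kcnn4 of the calcium- or sodium-activated channels with the vector (0.803, 0.25 and 0.203 FPKM), and Kcne4 and Kcne3 of the auxiliary subunits (6.53 and 2.56 FPKM), followed by Kcnab1 and Kcnmb1 at the same 1.73 FPKM.

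Among the voltage-gated channels, the largest group by number, the genes of both delayed rectifier currents rose. Kcnh2 (ENSMUSG00000038319, GRCm38 chromosome 5, 24319589 to 24351604), which encodes the pore of the rapid delayed rectifier IKr, was at 27.2, 29.5 and 31.9 CPM with the vector and at 86.9, 82.2 and 85.0 CPM with HMGB2. The groups lay far apart, and the fold of 2.87 (log2 ratio 1.52, SE 0.08) had the smallest p of the family (edgeR adjusted p = 2.81e-06). Kcnq1 (ENSMUSG00000009545, chromosome 7, 143106362 to 143427042), the pore of the slow delayed rectifier IKs, was at 4.49, 4.82 and 5.58 CPM against 15.99, 16.14 and 16.001 CPM. It rose 3.22-fold (log2 SE 0.12, edgeR adjusted p = 1.56e-05). Its 3 HMGB2 values were nearly equal. Of its exon bases 2.96% lie in Kcnq1ot1 on the other strand, which had a log2 ratio of -0.51 that did not pass (edgeR adjusted p = 0.352). Its partner Kcne1, the auxiliary subunit that slows the IKs channel, rose from 2.005, 1.972 and 2.003 CPM to 5.53, 6.07 and 4.42 CPM (2.67-fold, edgeR adjusted p = 0.000822). Within a library, Kcne1 stood at 0.515 ± 0.0548 of the FPKM of Kcnq1 with the vector and at 0.424 ± 0.0645 with HMGB2, with overlapping groups. Kcne2, an auxiliary subunit named with IKr, was below the threshold with 13 counts in all 6 libraries together.

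The transient outward current of the mouse heart rests on Kv4 (Kcnd) and Kv1 (Kcna) channels, whose members moved unequally. Kcna4 (ENSMUSG00000042604, chromosome 2, 107290639 to 107298502), which carries the slowly recovering transient outward current, was at 1.203, 1.753 and 2.29 CPM with the vector and 8.12, 7.17 and 6.85 CPM with HMGB2. It rose 4.17-fold (log2 ratio 2.06, SE 0.22, edgeR adjusted p = 0.000162), the largest rise among the voltage-gated members. Kcnd2, which carries the fast transient outward current, had 0.882, 2.19 and 2.07 CPM against 3.19, 2.97 and 2.67 CPM. Its groups did not overlap, the vector 1 library was the lowest, and the log2 ratio of 0.76 (SE 0.31) did not pass (edgeR adjusted p = 0.104). Kcnd3, the other Kv4 gene of heart, had 1.52, 1.75 and 2.07 CPM against 1.62, 2.14 and 0.97 CPM, with a log2 ratio of -0.19 (SE 0.33, edgeR adjusted p = 0.717). Kcnip2, the subunit that brings Kv4 channels to the surface, was below the threshold, with 9, 6 and 4 counts in the vector libraries and 15, 9 and 10 counts in the HMGB2 libraries. The ratio of Kcna4 to Kcnd2 in FPKM was 1.47, 0.857 and 1.18 with the vector and 2.71, 2.55 and 2.77 with HMGB2.

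Kcng2, a silent modifier subunit, was at 22.4, 23.1 and 23.3 CPM against 43.2, 44.6 and 37.2 CPM (1.82-fold, edgeR adjusted p = 0.000189). A transcript on the other strand, D330025C20Rik, shares 9.10% of its exon bases and had a log2 ratio of 1.45 (edgeR adjusted p = 0.00886), so reads of both may be counted together. Kcna5, which carries the ultrarapid current IKur, had 1.36, 1.83 and 1.93 CPM against 2.10, 1.66 and 1.58 CPM and its log2 ratio was 0.06 (SE 0.27, edgeR adjusted p = 0.906). Kcnf1, another silent modifier subunit, was the member of this class that fell, from 10.7, 9.79 and 10.2 CPM to 6.61, 5.72 and 5.15 CPM (log2 ratio -0.81, SE 0.14, edgeR adjusted p = 0.00249). The 12 voltage-gated members that did not pass had log2 ratios of -0.28 (Kcnq5) to 0.76 (Kcnd2), with standard errors of 0.18 to 0.47. Kcnq5 (11.5 ± 2.3 against 9.48 ± 1.7 CPM), which carries M-type current in nerve and smooth muscle, and Kcnh7 (5.29 ± 1.4 against 7.32 ± 2.17 CPM), a relative of Kcnh2, were the most counted of them. Kcna7, Kcnc2, Kcnd1, Kcnh1 and Kcnq3 had means of 0.76 (Kcnq3 with the vector) to 2.25 CPM (Kcnc2 with HMGB2) and overlapping groups.

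**Figure D3:**
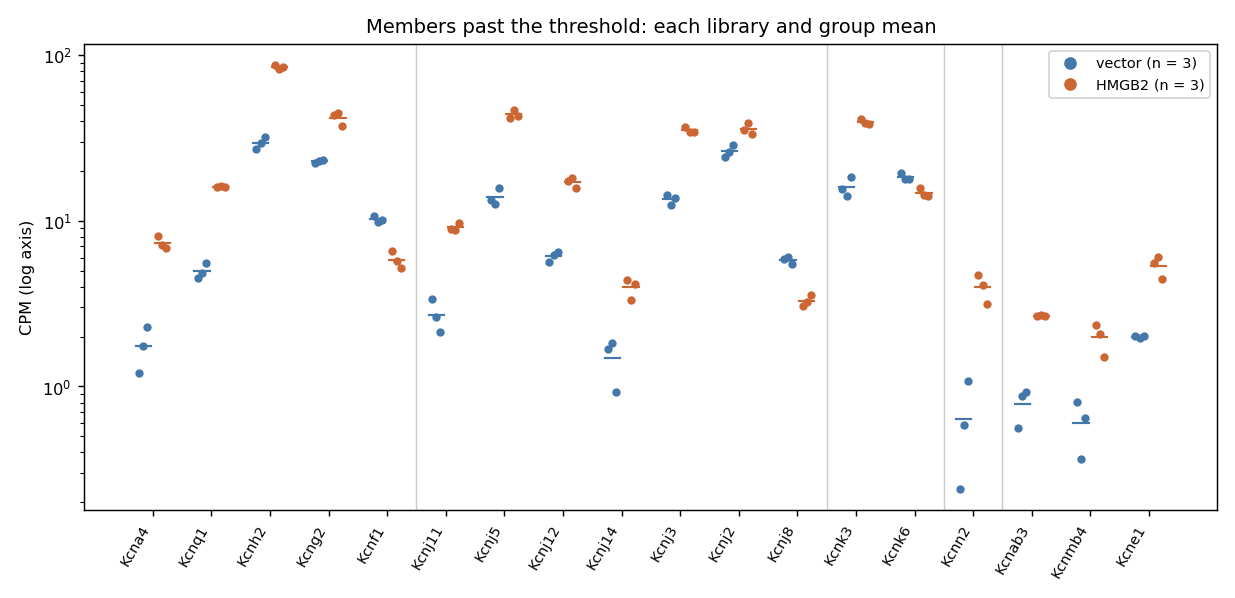
CPM of 18 of the 19 members past the threshold in each library (points) with the group mean (line), on a log axis, ordered by class and, within it, by log2 ratio. No member shown has overlapping groups; Kcnh2 is the highest with HMGB2 (84.7 CPM) and Kcnmb4 the lowest with the vector (0.604 CPM).

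Inward rectifiers of 3 cardiac currents rose. The acetylcholine-activated current IKACh, which slows the atria and the sinus node under vagal tone, runs through channels of Kcnj3 and Kcnj5 subunits. Kcnj5 (ENSMUSG00000032034, chromosome 9, 32314707 to 32344350) was at 13.3, 12.7 and 15.7 CPM with the vector and 41.9, 46.8 and 42.7 CPM with HMGB2 (3.14-fold, log2 SE 0.11, edgeR adjusted p = 7.61e-06). Kcnj3 (ENSMUSG00000026824, chromosome 2, 55435970 to 55598145) was at 14.4, 12.5 and 13.7 CPM against 36.6, 34.3 and 34.5 CPM (2.60-fold, SE 0.09, edgeR adjusted p = 1.01e-05). A long non-coding RNA on the other strand, Gm26794, covers 31.1% of the exon bases of Kcnj3. No level of Gm26794 is given here, and its reads may be counted together with those of Kcnj3. The FPKM of Kcnj5 was 1.15 ± 0.127 times that of Kcnj3 with the vector and 1.39 ± 0.125 times with HMGB2 (SD, n = 3), with overlapping groups, so the 2 subunits rose by amounts that these libraries did not separate.

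The strong inward rectifiers Kcnj2 and Kcnj12 carry IK1, which sets the resting potential of ventricular cells. Kcnj2 was at 24.1, 25.9 and 28.7 CPM against 35.3, 38.7 and 33.5 CPM, a rise of 1.36-fold (SE 0.10, edgeR adjusted p = 0.00945), the smallest rise of the 16. Kcnj12 was at 5.61, 6.21 and 6.51 CPM against 17.4, 18.1 and 15.7 CPM, and rose 2.79-fold (SE 0.12, edgeR adjusted p = 3.06e-05). The FPKM of Kcnj12 was 0.462, 0.473 and 0.45 of that of Kcnj2 in the vector libraries and 0.977, 0.928 and 0.929 in the HMGB2 libraries, so both stood at near equal levels with HMGB2. Kcnj4, a related strong rectifier, had 3.45 ± 0.772 against 3.62 ± 0.439 CPM and did not pass (log2 ratio 0.07, SE 0.21, edgeR adjusted p = 0.854). Kcnj14, a weakly abundant rectifier, rose from 1.68, 1.83 and 0.93 CPM to 4.39, 3.31 and 4.18 CPM (2.69-fold, edgeR adjusted p = 0.00439). Its transcript is 99.1% identical over 46.3% of its length to Gm5522, which held 2 counts in all 6 libraries together.

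The ATP-sensitive channels, which open when ATP falls, showed opposite calls for their pore subunits. Kcnj11, which encodes Kir6.2 of cardiomyocytes, was at 3.37, 2.63 and 2.15 CPM with the vector and 8.90, 8.76 and 9.76 CPM with HMGB2 (3.38-fold, SE 0.18, edgeR adjusted p = 0.000122). Kcnj8, which encodes Kir6.1, known from vascular smooth muscle and pericytes, was at 5.85, 6.06 and 5.51 CPM against 3.07, 3.24 and 3.58 CPM. Kcnj8 fell (log2 ratio -0.82, SE 0.16, edgeR adjusted p = 0.00499). The FPKM ratio of Kcnj11 to Kcnj8 was therefore 0.397, 0.299 and 0.271 with the vector and 2.02, 1.87 and 1.89 with HMGB2, below 1 in every vector library and above 1 in every HMGB2 library. Each pore gene lies beside the gene of a sulphonylurea receptor, the regulatory subunit of the same channels, Kcnj11 with 3759 bases to Abcc8 and Kcnj8 with 16248 bases to Abcc9. Abcc8 was at 6.25, 6.21 and 8.59 CPM against 32.3, 30.7 and 27.1 CPM, a rise of 4.27-fold (edgeR adjusted p = 1.06e-05). Abcc9, at 33.4, 57.1 and 52.1 CPM against 71.6, 72.0 and 53.0 CPM, did not pass (log2 ratio 0.46, SE 0.19, edgeR adjusted p = 0.115), and its groups overlapped. It passed as higher in 2 alternatives, with adjusted p = 2.5e-05 in edgeR without vector 1 and HMGB2 3 and 0.000241 without a filter on low counts. The FPKM of Abcc8 was 0.193, 0.113 and 0.17 of that of Abcc9 with the vector and 0.467, 0.441 and 0.53 with HMGB2. Beside the fall of Kcnj8, the 8 smooth muscle and pericyte markers had log2 ratios of -0.51 (Tagln, which fell, edgeR adjusted p = 0.00774) to 0.68 (Cnn1, which rose, edgeR adjusted p = 0.000342), with a median of -0.02. The 6 that did not pass were Pdgfrb (-0.26), Notch3 (-0.27), Cspg4 (0.03), Myh11 (-0.03), Acta2 (0.009) and Rgs5 (-0.007). Their part in the fall of Kcnj8 was not tested. Kcnj15, the most abundant inward rectifier with the vector, had 37.7, 45.2 and 39.9 CPM against 42.4, 43.2 and 36.4 CPM, and its groups overlapped (log2 ratio -0.01, SE 0.10, edgeR adjusted p = 0.956). Kcnj16, an inward rectifier that joins other subunits, had 1.88 ± 0.415 against 1.87 ± 1.03 CPM (SD, n = 3).

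**Figure D4:**
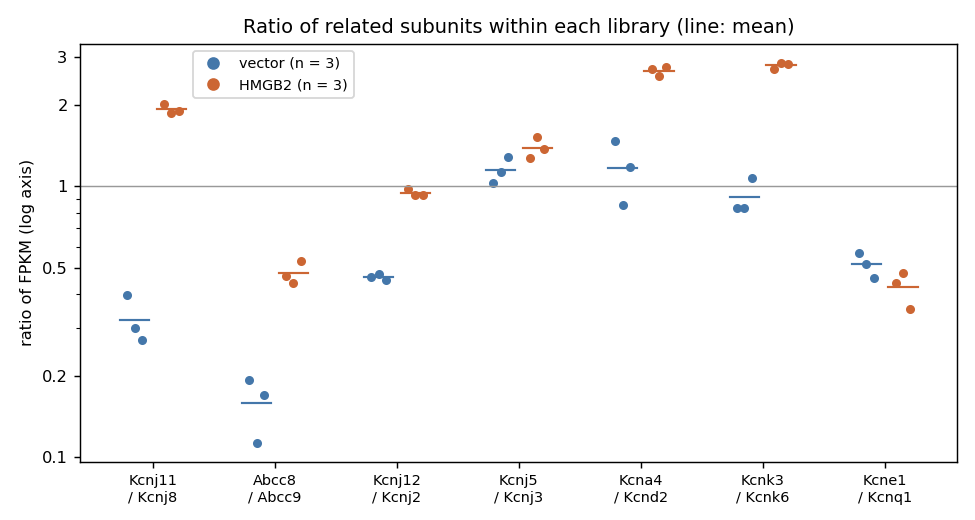
Ratio of the FPKM of related genes within each library (points) with the group mean (line), on a log axis; the grey line marks a ratio of 1. Kcnj11 over Kcnj8 goes from 0.323 to 1.93 and Kcnj12 over Kcnj2 from 0.462 to 0.945, while Kcnj5 over Kcnj3 and Kcne1 over Kcnq1 have overlapping groups.

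Of the two-pore background channels, Kcnk3 rose alone. It encodes TASK-1, an acid-sensitive background channel known from atrial cells, and was at 15.5, 14.1 and 18.2 CPM with the vector and 41.1, 39.0 and 38.4 CPM with HMGB2 (2.48-fold, SE 0.11, edgeR adjusted p = 3.24e-05). An overlapping transcript on the other strand, Gm9899, shares 5.76% of its exon bases and had a log2 ratio of 1.05 (edgeR adjusted p = 0.00643). Kcnk6, which encodes TWIK-2, was at 19.3, 17.7 and 17.8 CPM against 15.8, 14.3 and 14.2 CPM, with a log2 ratio of -0.31 (SE 0.10, edgeR adjusted p = 0.0457). This call was lost in 13 of 17 alternatives, among them each fit without 1 of the 6 libraries (adjusted p 0.076 to 0.144), and adjusted p values over all 17 were 0.038 to 0.144. The FPKM ratio of Kcnk3 to Kcnk6 was 0.834, 0.829 and 1.07 with the vector and 2.72, 2.85 and 2.83 with HMGB2. Kcnk2, the stretch- and lipid-sensitive channel TREK-1, had 6.25, 3.87 and 5.01 CPM against 5.77, 4.97 and 5.39 CPM and its log2 ratio was 0.10 (SE 0.19, edgeR adjusted p = 0.756). Kcnk5 had 6.48 ± 0.647 against 5.47 ± 0.248 CPM (SD, n = 3) and did not pass (edgeR adjusted p = 0.265), though all 3 HMGB2 values lay below the vector values. Kcnk7, a subunit without known current of its own, had 1.98 ± 0.588 against 1.07 ± 0.66 CPM with overlapping groups (log2 ratio -0.89, SE 0.45, edgeR adjusted p = 0.186).

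Among the calcium- or sodium-activated channels, Kcnn2, which encodes the small-conductance channel SK2, showed the largest fold of the family. It had 3, 8 and 15 counts in the vector libraries and 78, 59 and 52 counts in the HMGB2 libraries, or 0.241, 0.584 and 1.07 CPM against 4.69, 4.07 and 3.15 CPM. The fold of 6.09 (log2 ratio 2.61, SE 0.38, edgeR adjusted p = 0.00107) therefore rests on few counts with the vector. Kcnn3 and Kcnn1, the other SK genes of heart, had log2 ratios of 0.95 (SE 0.37) and 0.54 (SE 0.29) with groups that did not overlap, and did not pass (edgeR adjusted p = 0.0965 and 0.217). Kcnn4, the intermediate-conductance channel known from blood and stromal cells, had 1.06 ± 0.383 against 0.503 ± 0.0368 CPM, and Kcnt2, a sodium-activated channel, had 5.66 ± 0.949 against 3.89 ± 0.265 CPM (SD, n = 3). Both had all HMGB2 libraries below the vector libraries and did not pass (edgeR adjusted p = 0.0758 and 0.0502). Kcnt2 passed in 5 alternatives, with an edgeR adjusted p of 0.0286 without vector 1. Kcnma1, the large-conductance channel, was below the threshold with 50 counts in all.

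Of the auxiliary subunits, Kcnab3 and Kcnmb4 rose beside Kcne1. Kcnab3, a cytoplasmic beta subunit of Kv1 channels, was at 0.561, 0.876 and 0.93 CPM against 2.65, 2.69 and 2.67 CPM (3.33-fold, edgeR adjusted p = 0.00164). Kcnmb4, a beta subunit of the large-conductance channel, was at 0.802, 0.365 and 0.644 CPM against 2.34, 2.07 and 1.52 CPM (3.26-fold, edgeR adjusted p = 0.00757), and 20.9% of its exon bases lie in the antisense transcript Kcnmb4os2, which held 4 counts in all. Both stayed under 1 FPKM in every library. The abundant members Kcne4 (17.5 ± 1.26 against 16.2 ± 1.66 CPM), Kcnab1 (19.5 ± 1.55 against 20.96 ± 0.254 CPM) and Kcne3 (4.599 ± 0.465 against 4.75 ± 1.03 CPM) had log2 ratios of -0.11, 0.10 and 0.04 with standard errors of 0.11, 0.09 and 0.20 (SD, n = 3). Their groups overlapped and none of the 3 passed (edgeR adjusted p = 0.535, 0.485 and 0.903). Kcnip1 (2.01 ± 0.614 against 1.15 ± 0.387 CPM) and Kcnmb1 (7.32 ± 1.73 against 5.58 ± 0.74 CPM), whose loci overlap on chromosome 11, did not pass either (edgeR adjusted p = 0.129 and 0.18). Kcnab2 had 2.68 ± 0.27 against 2.89 ± 0.483 CPM, and Kcnip4, a subunit of Kv4 channels, had 0.674 ± 0.0776 against 1.09 ± 0.117 CPM with groups that did not overlap (edgeR adjusted p = 0.754 and 0.157).

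Set against the summed cardiomyocyte markers of the same library, a scale chosen after the values were seen, the called members fell into several kinds. Of the 16 that rose, 12 were higher with HMGB2 on this scale too, with no overlap of groups, against 22.5% of the 2224 genes that rose and 3.25% of all genes tested. The leading ones were Kcnn2 (3.53-fold), Kcna4 (2.35-fold), Kcnab3 (1.88-fold), Kcnj11 (1.83-fold) and Kcnq1 (1.78-fold). For Kcnh2 the ratio of the group means was 1.58, for Kcnj5 1.73, for Kcnj3 1.42 and for Kcnk3 1.36. The groups overlapped for 3, among them Kcng2 (0.995) and Kcnj14 (1.46), and Kcnj2 was lower in all 3 HMGB2 libraries (0.751). These ratios carry no test, and the members set in them were chosen by their calls in the same libraries. The summed markers themselves rose 1.82-fold, so a larger rise passes more readily on this scale. At least 2-fold rises were 14 of the 16 members but 743 of the 2224 genes, so the 22.5% is not a like comparison. In a sum the most counted markers weigh most. Single markers had folds from 1.33 (Ttn, which did not pass) to 2.64 (Actc1), with a median of 1.63. How far the placing of members depends on the markers summed was not tested.

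RefSeq promoter windows on GRCm38.p6, from 250 bases before to 50 bases after a start site, were found for 34 members, in 53 windows. Windows are printed here for the 3 members that rose and the 2 that fell with the smallest p among members with a single window, since these moved most reliably in each direction. The search, on both strands, was for the GC box GGGCGG of SP and KLF factors, TATAAA, the GATA motif AGATAA, the MEF2 motif (CTA, 4 bases of any kind, TAG), the TBX5 motif AGGTGTNA and the NKX2-5 motif TNAAGTG, and the capitals mark every match.
Kcnh2 (chr5:24329542-24329841, minus strand): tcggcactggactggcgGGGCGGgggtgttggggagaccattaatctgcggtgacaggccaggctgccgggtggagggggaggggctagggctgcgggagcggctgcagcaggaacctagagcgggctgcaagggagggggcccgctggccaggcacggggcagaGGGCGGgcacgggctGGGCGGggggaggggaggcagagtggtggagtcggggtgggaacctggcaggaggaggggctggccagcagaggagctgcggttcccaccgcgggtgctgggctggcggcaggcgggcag
Kcnj5 (chr9:32344295-32344594, minus strand): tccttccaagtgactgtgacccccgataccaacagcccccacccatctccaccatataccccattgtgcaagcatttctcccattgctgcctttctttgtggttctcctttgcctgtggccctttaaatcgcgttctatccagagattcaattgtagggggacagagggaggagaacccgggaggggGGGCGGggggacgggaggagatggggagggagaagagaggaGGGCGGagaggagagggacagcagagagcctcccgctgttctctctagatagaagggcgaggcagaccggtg
Kcnj3 (chr2:55435720-55436019, plus strand): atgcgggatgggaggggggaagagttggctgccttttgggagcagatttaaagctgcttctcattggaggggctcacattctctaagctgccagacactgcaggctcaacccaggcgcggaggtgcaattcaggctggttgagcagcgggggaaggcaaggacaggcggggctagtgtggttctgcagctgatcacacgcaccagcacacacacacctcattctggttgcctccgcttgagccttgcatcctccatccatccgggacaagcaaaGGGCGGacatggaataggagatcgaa
Kcnf1 (chr12:17176839-17177138, minus strand): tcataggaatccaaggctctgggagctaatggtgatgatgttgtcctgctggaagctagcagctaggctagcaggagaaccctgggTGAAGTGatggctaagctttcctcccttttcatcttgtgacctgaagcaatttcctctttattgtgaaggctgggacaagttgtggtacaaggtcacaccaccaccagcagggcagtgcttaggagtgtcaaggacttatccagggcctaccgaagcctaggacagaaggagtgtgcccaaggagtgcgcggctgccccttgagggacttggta
Kcnj8 (chr6:142571565-142571864, minus strand): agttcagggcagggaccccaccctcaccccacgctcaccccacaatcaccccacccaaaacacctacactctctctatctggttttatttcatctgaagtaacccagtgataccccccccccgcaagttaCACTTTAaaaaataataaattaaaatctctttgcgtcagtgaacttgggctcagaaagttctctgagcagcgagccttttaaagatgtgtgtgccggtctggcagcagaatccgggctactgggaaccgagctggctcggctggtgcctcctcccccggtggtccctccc
The windows of Kcnh2, Kcnj5 and Kcnj3 held 3, 2 and 1 GC boxes and no other motif of the 6, while those of Kcnf1 and Kcnj8 held no GC box and 1 NKX2-5 motif each. The Kcnh2 window was 74.3% G and C, against a median of 57.0% over the member windows and 52.7% over all 32851 windows. It lies inside the gene, which runs on the minus strand from 24351604 down to 24319589. Its letters therefore describe an internal start site and not the outermost start of Kcnh2. GC boxes were in 21 of the 53 member windows (39.6%, against 35.7% of all windows), in at least 1 window of 6 of 7 members that rose, 15 of 25 that did not pass and 0 of 2 that fell. The NKX2-5 motif was in 3 member windows (5.66%, against 11.5% of all), and MEF2 in none (3.69% of all). TATAAA and AGATAA were each in 3 member windows (5.66%, against 13.6% and 11.2% of all), and AGGTGTNA in 2 (3.77%, against 3.03%). None of these 5 motifs was in a window of a member that rose, but only 7 of the 16 that rose had a window. Of the 3 that fell, 2 had one. Counts by call are per gene, with 1 or more windows each, while the shares of all windows are per window. Differences in motifs between members that rose and fell were not tested. A match describes the letters of the window and not a bound site.

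Genes that work with these channels but are no Kcn genes were counted from 3 lists. Over all 15429 genes tested, 14.4% rose and 10.8% fell. Of the tested genes 33.3% of the partners, 66.7% of the carriers and 37.5% of the transcription factors rose. The shares that fell were 6.67%, 0% and 6.25%. They rest on 1, 0 and 1 genes, and their difference from the 10.8% of all genes was not tested. Of 20 partners that bind, carry or degrade potassium channels, 15 were tested, 5 rose and 1 fell (median log2 ratio 0.39). Among the rises were those of Abcc8, described above, and Rnf207, a ubiquitin ligase of the Kcnh2 channel (3.85 ± 0.956 to 14.9 ± 2.1 CPM, 3.84-fold, edgeR adjusted p = 8.5e-05). Dpp10 and Lrrc26 were at 0 in all libraries. Without vector 2 or HMGB2 2, 3 partners rose and none fell, and without vector 1 and HMGB2 3 together 8 rose. Of 18 carriers of sodium, calcium, pacemaker and pump currents, all tested, 12 rose and none fell (median 0.62), among them the T-type calcium channel Cacna1g (3.97-fold, edgeR adjusted p = 2.04e-05) and the sodium pump beta subunit Atp1b1 (1.504-fold, 0.000389). Of 16 transcription factors known to act on cardiac potassium channel genes, 6 rose and 1 fell (median 0.26). The leading ones were Irx3 (7.37 ± 1.57 to 19.5 ± 0.781 CPM, edgeR adjusted p = 0.00015), Nkx2-5 (22.6 ± 4.01 to 49.6 ± 2.39 CPM, 0.000157) and Irx4 (3.52 ± 1.03 to 11.5 ± 1.44 CPM, 0.000367), with SD over n = 3. The one that fell was Rest, a repressor of neuronal genes (log2 ratio -0.34, edgeR adjusted p = 0.0155), and this fall was lost without vector 2, vector 3 or HMGB2 2.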

How the data were processed

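Per the submitters' processing notes, the tools were HISAT2 2.2.1, StringTie 1.3.3b, FastQC 0.10.1 and HTSeq 0.6.1, with the build mm10 and no roles stated. Not given in the sources used here: strand setting, virus dose, collection time, mouse strain, age in days. The deposited table holds raw counts per Ensembl gene, and the authors also deposited FPKM, used for levels between genes (implied gene lengths of the 19 members at 1 FPKM or more varied by at most 0.243% between libraries). All per-sample columns were used. The column abbreviations were read as vector and HMGB2 through the titles. Only 1472 of 52073 matched rows have the positions of GENCODE M21, so positions in the text come from GENCODE M21 (GRCm38) by identifier.

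Counts were fitted with edgeR 4.0.16 (R 4.3.3): filterByExpr (minimum count 10, total 15), TMM, a robust quasi-likelihood F-test with group as the only term, Benjamini-Hochberg over 15429 genes. SE is the log2 ratio divided by the root of F, and CPM uses TMM-scaled library sizes. Copies are transcripts at least 95% identical over 100 bases. Alternatives used limma 3.58.1 and DESeq2 1.42.0. On simulated counts for this comparison (15175 genes), edgeR recovered 61.2% of 67 genes changed 1.5-fold, 92.5% of 67 changed 2-fold and 98.5% of 66 changed 4-fold. Replicates of each group differed by more than sampling noise (chi-square per degree of freedom at least 1.996). Whether replicates came from separate cultures is not given in the labels, so the p-values rest on the spread among these libraries alone, possibly technical, and an exact two-sided permutation test of 3 against 3 cannot go below 0.1. Members and lists were chosen with earlier results of these data known. Of the members past the threshold 18 are named, with values per library for the leading members of each class and those of the classical cardiac currents; other names, and the pairs set in ratio, were chosen after their values were seen. Some members and listed genes are counted but not reported here by name. Without a stated strand setting, reads of overlapping genes cannot be told apart: 20 of 48 members share exon bases with another gene, 4 of them over 10%.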

Additional observations from a re-analysis of the deposited data

How the results depend on the processing

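All 16 rises kept direction and call in every alternative that tested them, 17 each, or 16 for Kcnmb4, which a minimum count of 30 removes. So did the falls of Kcnf1 and Kcnj8; that of Kcnk6 did not. The smallest log2 fold changes came with log2(FPKM + 1), which compresses low levels (0.50 for Kcnn2, 0.90 for Kcna4). Kcnj2 came closest to the threshold (adjusted p = 0.048 without HMGB2 2). With the replicate number as a block 16 members rose and 2 fell; over all genes 1459 rose and 754 fell, over partners 3 rose and 0 fell, and 0 regulators and 0 two-pore members fell. The labels do not say that numbers pair libraries, and same-numbered libraries did not deviate together (correlations -0.318, 0.231 and -0.375); vector 1 correlated best with HMGB2 3 (0.521).

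Falling two-pore members were also 0 with DESeq2, library totals, no filter, both limma fits and without vector 1 and HMGB2 3. Falling partners were 0 with DESeq2, library totals, no filter and both limma fits. A calcium- or sodium-activated member fell (1) with RLE or upper-quartile factors, minimum count 30, and without vector 1 and HMGB2 3. That last setting also gave 2986 lower genes, 1 lower auxiliary member, 8 higher partners, 1 lower carrier and 2 lower regulators. Leaving out 1 library at a time gave 866 to 1960 lower genes, 0 lower two-pore members each time (0 to 0), 0 to 1 lower calcium- or sodium-activated members, 3 to 6 higher and 0 to 1 lower partners, 0 to 1 lower carriers and 0 to 1 lower regulators. The cause was not tested.

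Members near 0 changed sign. Without vector 1 and HMGB2 3, log2 fold changes were -0.0682 for Kcnj4, 0.0112 for Kcnj15, -0.10 for Kcnh1 and -0.27 for Kcnq3. With library totals they were 0.01 for Kcnj15 and 0.0195 for Kcnj16, without a filter 0.0002 for Kcnj16, and with FPKM plus 0.1 and plus 1 0.0103 and 0.009 for Kcnj15. With 1 library left out the ranges were -0.0792 to 0.15 for Kcna5, -0.16 to 0.23 for Kcnd1, -0.46 to 0.0668 for Kcnd3, -0.13 to 0.18 for Kcne3, -0.21 to 0.56 for Kcnh1, -0.0659 to 0.067 for Kcnj15, -0.49 to 0.32 for Kcnj16, -0.0701 to 0.26 for Kcnj4, -0.062 to 0.28 for Kcnk2 and -0.23 to 0.29 for Kcnq3. Kcnh7 passed without HMGB2 3 (adjusted p = 0.0475), and Kcnh7 and Kcnmb1 passed without vector 1 and HMGB2 3. Among members that did not pass, standard errors reached 0.47 (Kcnh1); no alternative varied the depth.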
